A study of Mus musculus with 4 samples.

Results

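A set of 8 genes whose protein products are known from neurodegenerative proteinopathies was followed through the brain RNA-seq profiles of the mouse model of Hunter syndrome (mucopolysaccharidosis type II). They were chosen by name, as App, Aplp1, Bace1, Psen2, Lrrk2, Prnp, Sorl1 and Grn, and each was found among the 12700 genes of the count table, under the Entrez identifiers 11820, 11803, 23821, 19165, 66725, 19122, 20660 and 14824 in that order. RNA came from C57BL/6 mice aged 9 months, either Ids-ko (Ids-/-) or wild-type littermates (wt), and was taken from the cerebral cortex (Cx) or from a block of midbrain, diencephalon and hippocampus (M) that, in the methods of the study, also holds the striatum. The 4 libraries are CxH and MH, labelled Ids-ko, and CxWT and MWT, labelled wt. Each is 1 library made from the pooled RNA of 7 mice, so no difference below has a replicate check, and every comparison is one between libraries and not between conditions. Each brain was cut into both areas, so by their labels CxH and MH share their mice, as do CxWT and MWT. A like result in Cx and M is then not one from separate animals. Which libraries share mice rests on the labels, and the Ids reads below pair CxH with MWT and MH with CxWT.

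In these diseases a normal brain protein, or a fragment of it, misfolds and builds up in or around neurons. App, the amyloid precursor protein, is cut first by the β-secretase Bace1 and then by the γ-secretase, of which Psen2 is a catalytic subunit, to give the amyloid peptide of Alzheimer's disease. Aplp1 is a relative of App cut by the same enzymes, and Prnp encodes the prion protein. The sorting receptor Sorl1 directs App away from the compartments where it is cut. Grn encodes progranulin, a secreted and lysosomal protein that microglia make in quantity and whose loss causes frontotemporal dementia or, when complete, a lysosomal storage disorder. Lrrk2 is a kinase of Rab proteins on lysosomes and vesicles, mutated in familial Parkinson's disease and abundant in neurons of the striatum and the cortex.

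Deposited counts are reads per gene. They were scaled to RPM by the aligned reads of the library, and a log2 ratio always sets the first library named over the second. An interval is the 95% exact Clopper-Pearson interval, and ± is the standard error of the log2 ratio, both from counting error only. Calls required a log2 ratio of 0.7 or more in either direction together with p below 0.05 in a likelihood ratio test on the Poisson counts of the 2 libraries. The libraries held between 16380080 reads on genes (MWT) and 23475080 (CxH), and 3 reads, the floor, lay between 0.0779 and 0.104 RPM.

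The labels were first set against the data. Ids, the disrupted gene, had 135 RPM in CxH and 354 in CxWT, against 368 in MH and 155 in MWT, so that in M the library labelled Ids-ko had more Ids reads than the library labelled wt. Summed over 10 markers of cortical excitatory neurons, the level was 1824 RPM in CxH and 1687 in MH, and 253 in CxWT and 206 in MWT. Summed over 11 markers of midbrain and diencephalon it ran the other way, at 21.0 RPM in CxH, 31.9 in MH, 470.1 in CxWT and 413 in MWT. In MH, labelled as midbrain, diencephalon and hippocampus, 3 of the 11 had 3 reads or fewer, 1 of them with none. In CxH 6 of the 11 had 3 reads or fewer. The markers of MH and CxWT thus run against their area labels, with CxWT, labelled as cortex, higher in the midbrain sum than in the cortical one. Summed over 7 markers of striatal medium spiny neurons, the level was 934 RPM in CxH and 756 in MH, and 349.7 in CxWT and 345 in MWT. This sum runs against the described dissection for CxH and MWT too. CxH, labelled as cortex, was above MWT, labelled as the block that holds the striatum. Genotype as labelled and area markers therefore cannot be told apart in CxH vs. CxWT or in MH vs. MWT, and fewer cells of a type cannot be told apart from less RNA per cell. In CxH vs. MH and likewise in CxWT vs. MWT, 0 of the 10 cortical markers were called, with median log2 ratios of 0.11 and 0.31, while Ids had -1.44 and 1.19. Of the 11 midbrain and diencephalon markers, 3 were called lower in the former and 2 higher in the latter. Cx and M below stand for the labels alone. Libraries are named by their labels throughout, and both directions in M stand against the Ids reads.

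In CxH vs. CxWT 1 of the 8 genes was called, higher in CxH, where 20.9% of all genes were called (9.46% higher and 11.5% lower). MH vs. MWT called 2, both higher in MH, against 25.0% of all genes (12.3% higher and 12.7% lower). Between the areas as labelled, 1 was called higher in CxH vs. MH, against 3.50% of all genes (2.43% higher and 1.06% lower). CxWT vs. MWT called 0, against 7.54% (5.43% higher and 2.11% lower). In the last comparison 6 of the 8 had an unadjusted p-value under 0.05 in the likelihood ratio test, and the exact test with an assumed variation between pools called 0 as well. Lrrk2 was called higher in both comparisons of the labelled genotypes, Sorl1 in the library labelled MH over MWT, and Grn in CxH over MH. These comparisons share libraries and are not independent of each other. The median log2 ratio of the 8 genes was 0.28 in CxH vs. CxWT and -0.03 in MH vs. MWT, beside medians of -0.09 and -0.07 over all genes. For the areas as labelled it was 0.24 (CxH vs. MH) and 0.11 (CxWT vs. MWT), beside 0.01 and 0.04.

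The promoters of the called genes are printed because these are the members that differed most between libraries. Sequences are the 250 bases before the transcription start of the RefSeq gene, from the GRCm38.p6 assembly, which had entries for 7 of the 8 genes. Capitals mark matches, on either strand, to the GC box GGGCGG, found in 32.7% of 32851 such windows, and to the E-box CACGTG, found in 6.02%. For Sorl1, which has a pair of windows, the one given is the window farther upstream.

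Lrrk2, chr15:91672974-91673223, plus strand: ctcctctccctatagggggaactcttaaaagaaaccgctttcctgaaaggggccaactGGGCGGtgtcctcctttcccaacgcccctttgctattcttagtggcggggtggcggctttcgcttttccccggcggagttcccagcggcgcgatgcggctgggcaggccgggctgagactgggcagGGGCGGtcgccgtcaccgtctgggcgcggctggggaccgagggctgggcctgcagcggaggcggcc
Sorl1, chr9:42124298-42124547, minus strand: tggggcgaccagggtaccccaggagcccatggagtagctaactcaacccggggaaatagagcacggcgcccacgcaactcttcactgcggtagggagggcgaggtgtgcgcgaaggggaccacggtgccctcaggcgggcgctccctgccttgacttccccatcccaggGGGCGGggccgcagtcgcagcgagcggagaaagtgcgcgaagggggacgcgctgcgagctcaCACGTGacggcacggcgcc
Grn, chr11:102430257-102430506, plus strand: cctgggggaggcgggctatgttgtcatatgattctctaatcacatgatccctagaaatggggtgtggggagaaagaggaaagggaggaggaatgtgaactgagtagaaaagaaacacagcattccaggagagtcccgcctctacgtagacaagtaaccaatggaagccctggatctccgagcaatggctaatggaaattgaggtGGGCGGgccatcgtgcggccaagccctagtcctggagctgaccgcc

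Lrrk2 holds 2 GC boxes, Sorl1 holds 1 GC box and 1 E-box close to the start, and Grn holds 1 GC box. The other window of Sorl1 holds neither motif. App, Aplp1, Prnp and Psen2, which were not called, also hold GC boxes, and a window of Psen2 holds an E-box. The matches are therefore not particular to the called genes. A TATA box (TATAAA) was in none of the 3 printed windows, and is in 12.4% of all windows. These matches are letters in a window, and nothing in the counts reports on binding there.

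Taken per kilobase of the longest protein-coding transcript, the substrate proteins stood far above the enzymes and sorting factors. In CxH the order was Aplp1 at 373 RPM per kb, Prnp at 300.3 and App at 257, followed by Grn at 24.5, Sorl1 at 15.7, Bace1 at 10.4, Lrrk2 at 6.52 and Psen2 at 4.56. App, Aplp1 and Prnp were above at least 99.4% of genes in each library and gave between 86.7% (MH) and 89.5% (MWT) of the reads of the 8 genes. The rank of Lrrk2 among all genes went from above 50.9% of genes in CxH and 50.7% in MH to above 22.4% in CxWT and 23.2% in MWT. Prnp took the first place from Aplp1 in MWT, and Lrrk2 the last place from Psen2 in CxWT and MWT.

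**Figure D1:**
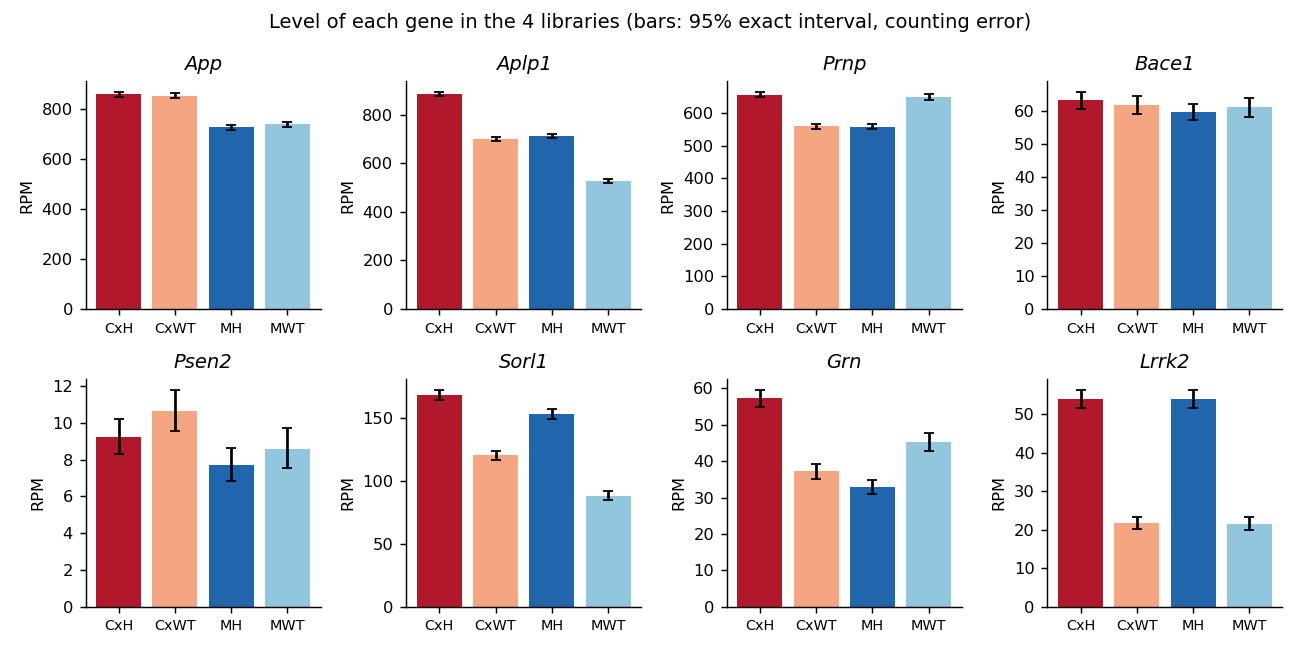
Each panel plots the level of 1 gene in RPM (vertical axis, from 0) in the libraries CxH, CxWT, MH and MWT, as bars with the 95% exact interval of counting. Bace1 is level across libraries at 59.7 to 63.3 RPM, whereas Lrrk2 stands near 54 RPM in CxH and MH and near 22 in CxWT and MWT.

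App lies on chromosome 16 from 84954685 to 85173952 (NCBI37/mm9, minus strand). It had 859 RPM (849 to 868) in CxH and 853 (843 to 863) in CxWT, against 726 (718 to 735) in MH and 739 (729 to 749) in MWT. Both libraries labelled Cx were above both labelled M, and the libraries of a label differed little, although the area markers pair them otherwise, CxH with MH and CxWT with MWT. The log2 ratio was 0.0095 ± 0.012 in CxH vs. CxWT and -0.026 ± 0.013 in MH vs. MWT, with a sign that turns under other scalings. Between the areas as labelled it was 0.24 ± 0.012 for CxH over MH and 0.21 ± 0.013 for CxWT over MWT, both beyond counting error and short of the threshold.

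Aplp1, on chromosome 7 from 31220001 to 31230580, had 884 RPM (874 to 893) in CxH and 699 (690.2 to 708) in CxWT, against 710.4 (702 to 719) in MH and 526 (518 to 535) in MWT. CxH was highest and MWT lowest, and CxWT and MH lay close together with a log2 ratio of 0.02 ± 0.013 between them. Log2 ratios were 0.34 ± 0.012 in CxH vs. CxWT and 0.43 ± 0.015 in MH vs. MWT, and none of the 4 comparisons called the gene. Its transcript has a GC content of 60.4%, above that of 95.5% of genes, and the log2 ratios followed GC content across genes, with Spearman correlations of 0.427 in CxH vs. CxWT, 0.465 in MH vs. MWT, 0.542 for CxH over MH and 0.604 for CxWT over MWT (12232 genes, given as a description). After correction for GC content and length, the ratios of Aplp1 were 0.01 in CxH vs. CxWT and -0.09 in MH vs. MWT.

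Prnp, on chromosome 2 from 131735664 to 131764165, had 656 RPM (648 to 664) in CxH and 559 (551 to 567) in CxWT, against 557 (549 to 565) in MH and 649 (639 to 658) in MWT. The higher pair was CxH and MWT, the libraries with fewer Ids reads, and the lower pair CxWT and MH. Log2 ratios were 0.23 ± 0.014 in CxH vs. CxWT and -0.22 ± 0.015 in MH vs. MWT, opposite in direction and below the threshold in size. With the GC and length correction they were 0.25 and -0.05. Prnp overlaps Prnd on the same strand in the annotation, and reads that fall in both genes were not counted by the authors.

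Ratios of reads within a library do not depend on the scaling. For every 1000 App reads there were 1029 ± 7.95 (counting standard error) Aplp1 reads in CxH and 820 ± 7.21 in CxWT, against 978 ± 8.45 in MH and 712 ± 7.55 in MWT. Aplp1 thus equalled or exceeded App in reads only in CxH. Bace1 reads per 1000 App reads were 73.7 ± 1.55 in CxH and 72.6 ± 1.65 in CxWT, and 82.2 ± 1.81 in MH and 82.8 ± 2.05 in MWT. The β-secretase transcript stood in a like proportion to its substrate in libraries of the same area label, with a higher proportion in those labelled M.

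Of the secretase genes, Bace1 was the steadiest. It lies on chromosome 9 from 45646663 to 45672482 and had 63.3 RPM (60.8 to 65.9) in CxH and 61.9 (59.3 to 64.6) in CxWT, against 59.7 (57.2 to 62.2) in MH and 61.2 (58.4 to 64.1) in MWT. All 4 intervals overlap. The highest and the lowest library differed by 0.085 on the log2 scale, and of the 11010 genes that reached 100 reads in each library only 53 had a narrower range. Bace1 overlaps Rnf214 and Gm16536 on the opposite strand, and whether the counting used strand is not given in the sources used here.

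Psen2, on chromosome 1 from 182157135 to 182193569, was the least abundant member with 355 reads in CxH and 358 in CxWT, against 288 in MH and 248 in MWT. Its levels were 9.22 RPM (8.29 to 10.2), 10.6 (9.57 to 11.8), 7.71 (6.84 to 8.65) and 8.57 (7.53 to 9.70) in that order. Only the intervals of CxWT and MH fail to overlap. Log2 ratios of -0.21 ± 0.11 in CxH vs. CxWT and -0.15 ± 0.12 in MH vs. MWT were within 2 standard errors of 0. They depend on the processing, at -0.38 and -0.27 with the GC and length correction, at -0.22 and -0.21 with column totals, at -0.11 and -0.094 with TMM factors and at -0.12 and -0.093 with DESeq2 size factors, and none of these reached the threshold.

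**Figure D2:**
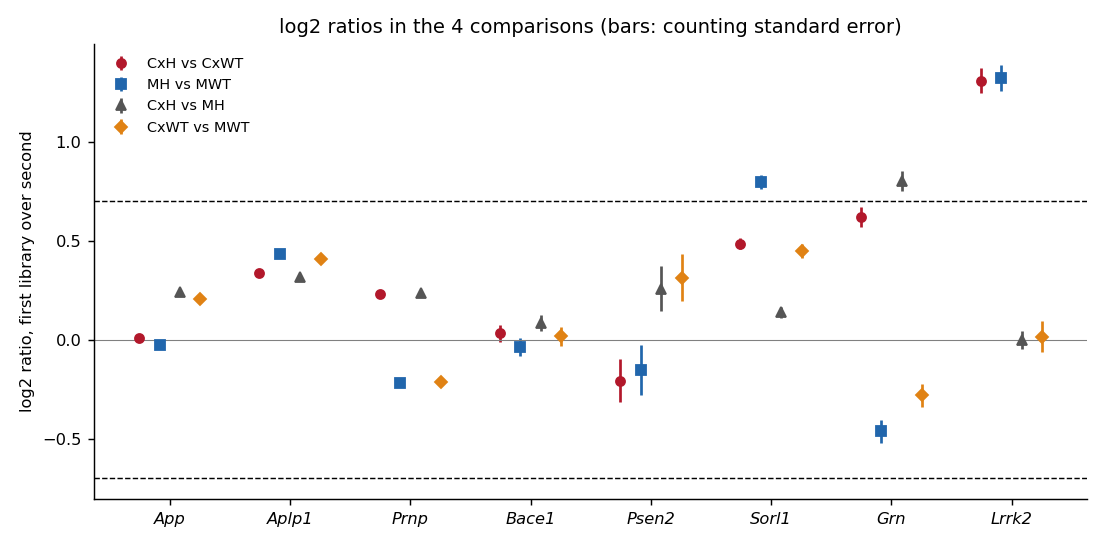
For each of the 8 genes (horizontal axis), the points give the log2 ratio in each of the 4 comparisons, with the counting standard error as bars and dashed lines at 0.7 in either direction. Points beyond a dashed line are those of Lrrk2 in both comparisons of the labelled genotypes, Sorl1 in MH vs. MWT and Grn in CxH vs. MH.

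Sorl1 lies on chromosome 9 from 41772803 to 41932380 and overlaps Gm16214 on the opposite strand. It had 168 RPM (164 to 172) in CxH and 120.0 (116 to 124) in CxWT, against 153 (149 to 157) in MH and 88.0 (84.6 to 91.5) in MWT. Each of the 2 libraries labelled Ids-ko was above each labelled wt, and all 4 intervals stand apart. CxH and MH are also the libraries with the higher sums of cortical and striatal neuron markers. The part of these cells in the Sorl1 ratios was not tested. The log2 ratio was 0.80 ± 0.034 in MH vs. MWT, a call, and 0.49 ± 0.029 in CxH vs. CxWT, short of the threshold. Whether the 2 comparisons differ was not tested. The call in M was lost with the GC and length correction, at 0.50, and in the exact test with an assumed variation between pools. The genes with the pattern over the 4 libraries nearest to that of Sorl1 were Stk40, within 0.0091 on the centred log2 scale in every library, and Kcnj9, within 0.022, among 11009 genes searched.

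Grn, on chromosome 11 from 102291629 to 102298123, had 57.2 RPM (54.9 to 59.7) in CxH and 37.2 (35.2 to 39.4) in CxWT, against 32.8 (31.0 to 34.7) in MH and 45.3 (42.8 to 47.8) in MWT. CxH and MWT were again the higher libraries, and the order CxH, MWT, CxWT, MH is the reverse of the order of Ids. No interval overlaps another. The log2 ratio was 0.80 ± 0.051 in CxH vs. MH, a call, with 98.2% of all genes below it. The ratio of CxH over CxWT was 0.62 ± 0.051 and that of MH over MWT -0.46 ± 0.057, so the direction differed between the areas as labelled. In CxWT vs. MWT it was -0.28 ± 0.057. With TMM factors or DESeq2 size factors the ratio in CxH vs. CxWT passed the threshold, at 0.71 in both, and with the GC and length correction the call in CxH vs. MH was lost, at 0.65, as it was in the exact test.

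Markers of microglia, a main source of progranulin in the brain, moved in part with Grn. Summed over 12 microglia markers, the level was 742 RPM in CxH and 359 in CxWT, against 421 in MH and 577 in MWT, and none of the 12 was at 0 in any library. As with Grn, CxH and MWT had the highest sums, but MH was above CxWT where Grn had the reverse. The sum over 6 astrocyte markers had the order of the microglia sum, at 2939 RPM in CxH, 2525 in MWT, 2435 in MH and 1968 in CxWT. Of the 12 microglia markers, 8 were called higher and 0 lower in CxH vs. CxWT, against 20.9% of all genes called. MH vs. MWT called 0 higher and 4 lower, against 25.0%. In CxH vs. MH, where Grn was called, 7 were called higher and 0 lower, against 3.50%. CxWT vs. MWT called 0 higher and 5 lower, against 7.54%. In MH vs. MWT 4 of the 12 had a log2 ratio above 0, opposite to Grn, among them Tmem119 at 0.48 and the receptor Csf1r at 0.33, neither called. Lyz2, the lysozyme of phagocytes, had 75.6 RPM in CxH and 19.8 in CxWT, against 20.3 in MH and 77.4 in MWT. P2ry12, a receptor of resting microglia, had 35.0, 28.1, 37.5 and 36.5 RPM in the same order. The part of microglia and astrocytes in the Grn ratios was not tested. Nearest to Grn in pattern were Gpx4, within 0.038 on the centred log2 scale, and Tmem205, within 0.045.

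Lrrk2, on chromosome 15 from 91503606 to 91646551, differed most of the 8 genes. It had 53.9 RPM (51.6 to 56.3) in CxH and 21.8 (20.2 to 23.4) in CxWT, against 53.96 (51.6 to 56.4) in MH and 21.6 (19.9 to 23.3) in MWT. The libraries fell into a high pair, CxH and MH, and a low pair, CxWT and MWT, and the intervals overlap within each pair and not between them. The level was 2.48-fold higher in CxH than in CxWT (log2 ratio 1.31 ± 0.062) and 2.50-fold higher in the library labelled MH than in MWT (1.32 ± 0.066). Between the areas as labelled the log2 ratios were -0.00033 ± 0.045 for CxH over MH and 0.01 ± 0.079 for CxWT over MWT. Of all genes, 96.8% had a lower ratio in CxH vs. CxWT and 96.0% in MH vs. MWT.

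These calls of Lrrk2 held under all 8 alternatives tried, and the corrected log2 ratios for GC content and length were 1.46 and 1.35. The crossed pairs of libraries had 1.32 ± 0.066 for CxH over MWT and 1.31 ± 0.062 for MH over CxWT. These follow from the ratios above and are no further check. Markers of the neurons in which Lrrk2 is abundant also split into the pairs CxH and MH, and CxWT and MWT. Of the 10 cortical markers, 9 were called higher and 0 lower in each of CxH vs. CxWT and MH vs. MWT, with median log2 ratios of 3.19 and 3.47. The 7 markers of striatal medium spiny neurons, summed, had 934 RPM in CxH and 349.7 in CxWT, against 756 in MH and 345 in MWT, and 6 of the 7 were called higher in both comparisons. No marker of either list was at 0. The 7 oligodendrocyte markers split along the same pairs in the other direction, with sums of 4953 RPM in CxH and 5148 in MH, below 9381 in CxWT and 7515 in MWT. Of the 7, all were called lower in CxH vs. CxWT and 4 in MH vs. MWT. The part of any of these cells in the Lrrk2 ratios was not tested. Nearest in pattern were Ezr, within 0.044 on the centred log2 scale, and Hivep2, within 0.058.

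**Figure D3:**
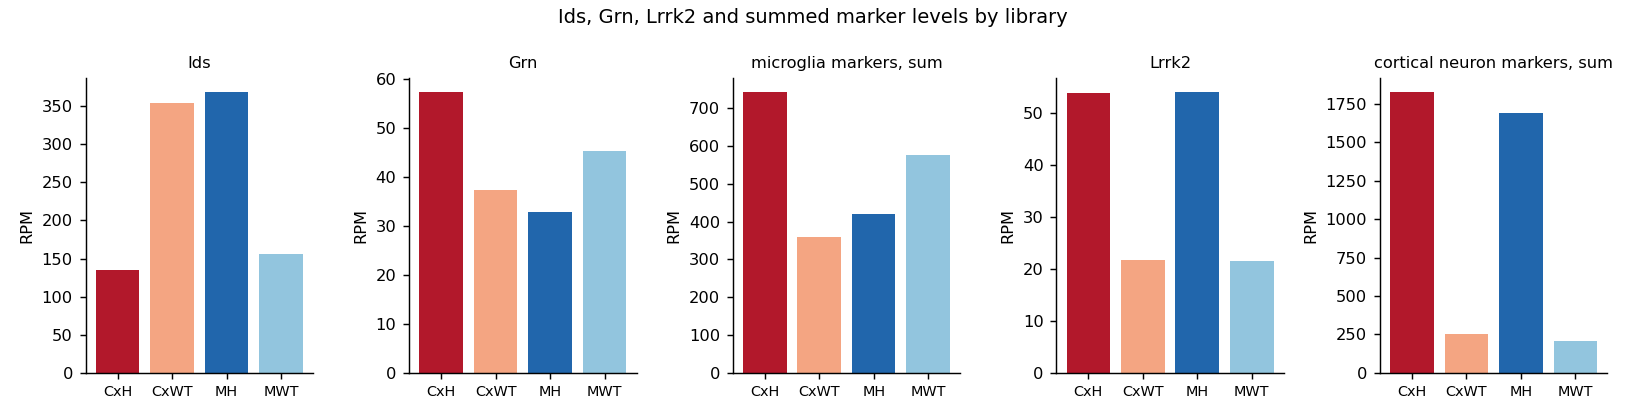
Bars give, for the libraries CxH, CxWT, MH and MWT, the level in RPM of Ids, of Grn, of 12 microglia markers summed, of Lrrk2 and of 10 cortical excitatory neuron markers summed. Grn and the microglia sum are highest in CxH and next highest in MWT, where Ids is lower, and Lrrk2 and the cortical sum are high in CxH and MH.

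A list of 52 further genes of the same processes was drawn up, and 49 of them were in the table, the others being Bace2, Aph1a and Prnd, which were not analysed here. Of the 49, 1 was called higher and 2 lower in CxH vs. CxWT, and 5 higher and 5 lower in MH vs. MWT, or 6.12% and 20.4% against the 20.9% and 25.0% of all genes. In CxH vs. MH 0 were called by the likelihood ratio test and 0 by the exact test, against 3.50% of all genes, and 35 of the 49 had an unadjusted p-value under 0.05. In CxWT vs. MWT 3 were called, all higher, or 6.12% against 7.54% of all genes. The median log2 ratios were -0.09, -0.02, 0.07 and 0.19 in the order of the comparisons, beside -0.09, -0.07, 0.01 and 0.04 over all genes.

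Among relatives of the substrates, Sprn, which encodes the prion-like protein Shadoo, was called in both comparisons by label. It had 167 RPM in CxH and 84.0 in CxWT, against 162 in MH and 87.3 in MWT. Its log2 ratios were 0.996 ± 0.033 and 0.89 ± 0.034, and both calls were lost at a threshold of 1. Its libraries paired as those of Lrrk2 did. Sncg, γ-synuclein, had 2.65 RPM in CxH and 19.1 in CxWT, against 1.98 in MH and 14.5 in MWT. Its log2 ratios were -2.85 ± 0.15 and -2.88 ± 0.18. Sncb, β-synuclein, had 179 RPM in CxH and 172 in CxWT, against 171 in MH and 101 in MWT, and was called only where MWT was the second library, at 0.76 ± 0.032 in MH vs. MWT and 0.77 ± 0.033 in CxWT vs. MWT. Both calls were lost under 4 of the 8 alternatives, and the GC and length correction gave 0.31 and 0.38. Apba2 and Apbb1, adaptors that bind the tail of App, were called in MH vs. MWT alone, at 0.94 ± 0.040 and 0.90 ± 0.025, and lost the call with the GC and length correction, at 0.65 and 0.51, and at a threshold of 1.

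Of the other enzymes, Ece2, an endothelin-converting enzyme that also degrades the amyloid peptide, had 17.7 RPM in CxH and 57.4 in CxWT, against 22.0 in MH and 51.3 in MWT. It was called lower in both comparisons by label, at -1.69 ± 0.064 and -1.22 ± 0.063, and kept these calls under all 8 alternatives. Aph1b, a γ-secretase subunit, was called in MH vs. MWT at -0.72 ± 0.071, a call lost under 5 of the 8 alternatives. Of the other 6 secretase genes measured, 0 were called in any comparison, where 3.50% to 25.0% of all genes were, and so few genes cannot be told from that share.

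Among sorting and lysosomal genes, Sort1, the sortilin receptor that takes up progranulin, had 385 RPM in CxH and 277 in CxWT, against 401 in MH and 225 in MWT, and was called in MH vs. MWT at 0.83 ± 0.021, a call lost with the GC and length correction, at 0.66, and at a threshold of 1. The retromer subunit Vps29 had -0.78 ± 0.052 and the lysosomal membrane protein Tmem106b -0.71 ± 0.030 in the same comparison. Vps29 lost its call under 3 of the 8 alternatives, with -0.36 after the GC and length correction, and Tmem106b under 5, with the same corrected value. Besides Sncb, the genes called in CxWT vs. MWT were Apba3 at 0.93 ± 0.11 and the Golgi adaptor Gga1 at 0.80 ± 0.065, which are named after their values were seen. Both lost the call with the GC and length correction, at 0.42 and 0.20. Of the 6 relatives and Rab substrates of Lrrk2 in the table, 0 were called in any comparison, a number too small to set against the all-gene shares of 3.50% to 25.0%.

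**Figure D4:**
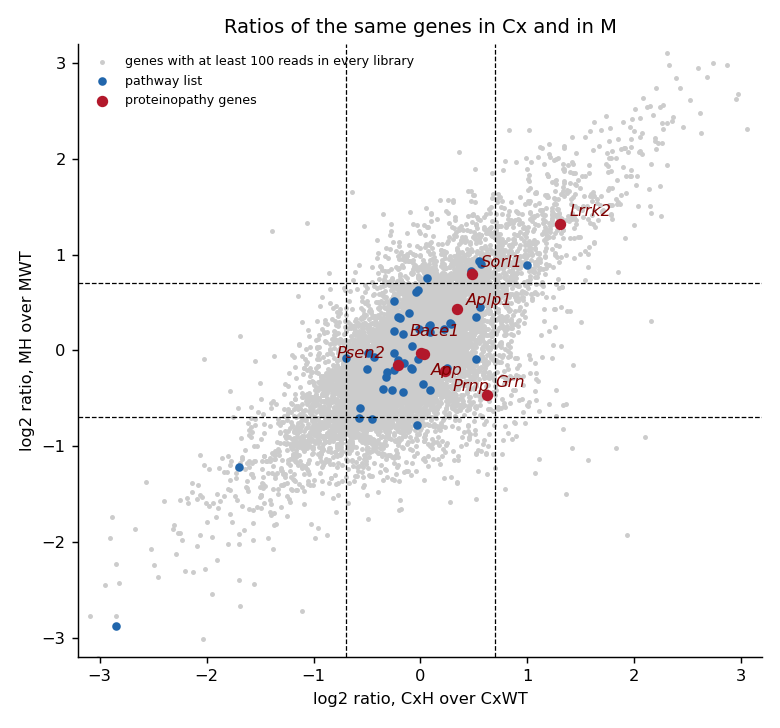
The log2 ratio of CxH over CxWT (horizontal axis) is plotted against that of MH over MWT (vertical axis) for genes that reached 100 reads in each library (grey), the further genes of the pathway list (blue) and the 8 proteinopathy genes (red), with dashed lines at 0.7 in either direction. The axes leave out the most extreme genes. Lrrk2 lies beyond both thresholds at 1.31 and 1.32, while Grn lies to the right and below 0 at 0.62 and -0.46.

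The GC and length correction moved the 8 genes to different extents. In MH vs. MWT it took Aplp1 from 0.43 to -0.09 and Sorl1 from 0.80 to 0.50, and moved Grn further from 0, from -0.46 to -0.68. Lrrk2, with a GC content of 45.5%, below that of most genes, moved from 1.32 to 1.35. The median of the 8 genes after the correction was 0.13 in CxH vs. CxWT, -0.07 in MH vs. MWT, 0.18 for CxH over MH and 0.02 for CxWT over MWT.

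**Figure D5:**
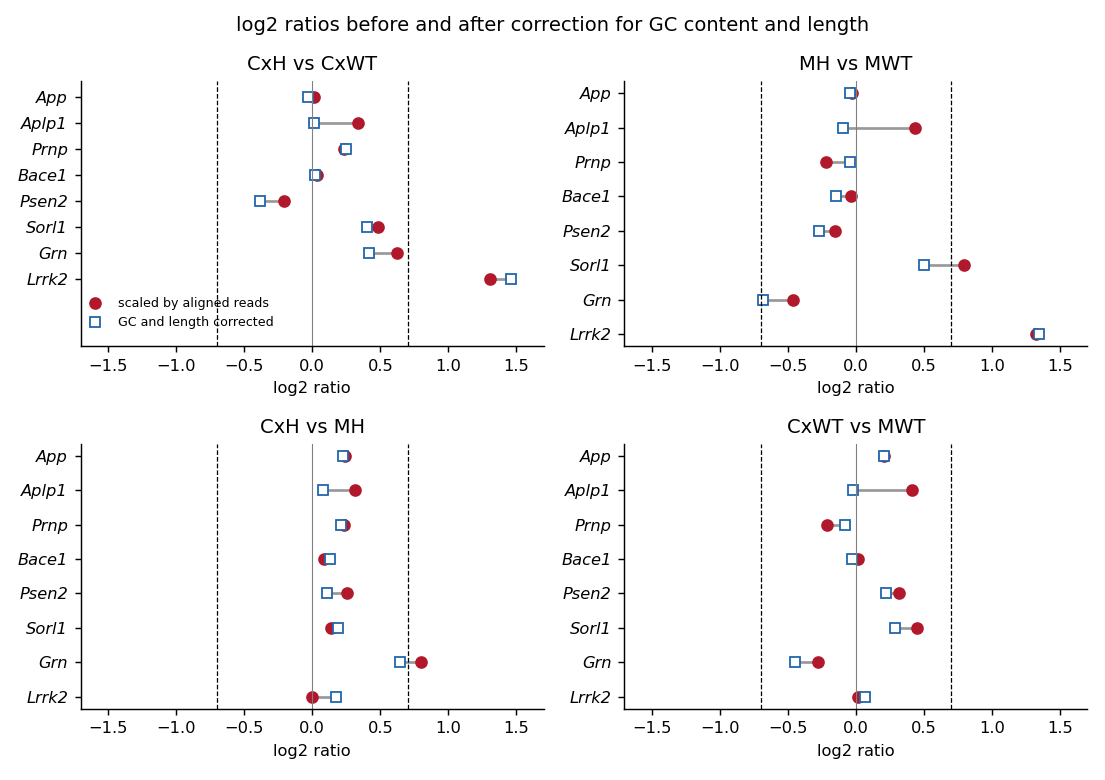
In 4 panels, 1 for each comparison, the log2 ratio of each of the 8 genes is shown as scaled by aligned reads (filled circles) and after the GC and length correction (open squares), joined by a line, with dashed lines at 0.7 in either direction. Aplp1 moves furthest in MH vs. MWT, from 0.43 to -0.09, and Lrrk2 stays beyond the threshold in the upper panels.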

How the data were processed

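RNA-seq counts of 4 libraries were used, 1 per area and labelled genotype. The authors sequenced pooled polyA RNA on a SOLiD 3 Plus instrument, aligned reads to NCBI37/mm9 with PASS 2.10 (best hit, at most 2 mismatches, no gap), and deposited raw counts of reads aligned to a single gene, keeping genes with read coverage of over 50% of the gene. The gene annotation is not given in the sources used here. Entrez identifiers were matched to symbols in RefSeq for 12690 of 12700 genes, and positions, length and GC content came from GENCODE vM1. Counts were scaled by the aligned reads that the study lists, and a count of 0 was set to 1 for ratios. A comparison of 2 libraries leaves a quasi-likelihood fit no residual degrees of freedom, so the Poisson likelihood ratio test and thresholds of the study were applied to all genes, in the 4 comparisons of the study, with unadjusted p-values. Members and lists were chosen with earlier results of these data known. Named were the members, Ids, pathway genes called in CxH vs. CxWT or MH vs. MWT with at least 100 reads in either library (up to 5 highest and 5 lowest), the 2 genes nearest in centred log2 RPM to each called member, and markers beside a result. The GC and length correction subtracted a quadratic trend fitted over 10707 genes. The steps were tested on simulated data. R 4.3.3 ran edgeR 4.0.16 and DESeq2 1.42.0, and Python 3.11.15 ran scipy 1.17.1 with numpy 2.4.6.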

Additional observations from a re-analysis of the deposited data

Results flagged for a closer look

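Among the 8 genes and Ids, the log2 ratios of 3 had opposite signs in the areas as labelled, each beyond counting error, with 1 library per condition. The pattern is not particular to them, since genes of the pathway and microglia marker lists show it too. That difference was not tested. Ids had log2 ratios of -1.39 in CxH vs. CxWT and 1.24 in MH vs. MWT. For Grn they were 0.62 and -0.46. Prnp had 0.23 and -0.22.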

How the results depend on the processing

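Each condition has 1 library, so no replicate could be left out. A fit that pairs the labelled genotypes within area was chosen after seeing the data, as an edgeR quasi-likelihood test over all 4 libraries with area as a block and 1 residual degree of freedom. It called 1 of the 8 genes, against 1 in CxH vs. CxWT and 2 in MH vs. MWT. Of 49 pathway genes it called 5, against 3 and 10, and of all genes 15.4%. Its calls took adjusted p-values below 0.05 at the same log2 threshold. The comparisons of 2 libraries took unadjusted p-values, so these counts are not like for like. The called gene was Lrrk2, with a log2 ratio of 1.32 and a Benjamini-Hochberg adjusted p of 0.0021. Sorl1 had 0.64 with an adjusted p of 0.037, short of the threshold of 0.7, and Grn, opposite in the areas, had 0.081 with 0.85. This fit takes the labels as given, although the Ids reads go against those of M and the area markers against those of MH and CxWT. Its genotype term thus also separates the libraries high and low in cortical markers, and the adjusted p cannot tell the 2 apart. By label the areas share their mice, so the adjusted p also does not measure the spread between separate animals. Of 160 log2 ratios of the 8 genes recomputed under 5 alternatives, 140 kept direction and side of the threshold, 2 lost a call, 2 gained one and 16 changed sign, none of the latter a call. The other 3 alternatives change only the filter, threshold or test, not the ratio, and 4 of 96 outcomes lost a call. The signs changed with column totals for App in CxH vs. CxWT (-0.0068) and for Bace1 (-0.074) and Lrrk2 (-0.077) in CxWT vs. MWT. With TMM factors they changed in MH vs. MWT for App (0.033) and Bace1 (0.023) and in CxWT vs. MWT for Bace1 (-0.032) and Lrrk2 (-0.035), and with DESeq2 size factors for the same ratios (0.034, 0.024, -0.032 and -0.034). With the GC and length correction they changed for App in CxH vs. CxWT (-0.029), Aplp1 in MH vs. MWT (-0.094) and CxWT vs. MWT (-0.023), Bace1 in CxWT vs. MWT (-0.031) and Lrrk2 in CxH vs. MH (0.18). Members called in CxH vs. CxWT became 2 with TMM factors or DESeq2 size factors. With a log2 threshold of 1, an exact test assuming a biological coefficient of variation of 0.2, or the GC and length correction, members called were 1 in MH vs. MWT and 0 in CxH vs. MH under each of the 3 alternatives. Under the same 3, in that order, pathway genes called were 2, 6 and 3 in MH vs. MWT and 0, 1 and 0 in CxWT vs. MWT. The cause was not tested. Over all genes, calls under the threshold of 1 were 1401, 1642, 143 and 295 in the 4 comparisons, against 2658, 3170, 444 and 958, the exact test called 1864, 2247, 191 and 487, and the GC and length correction 2136, 2234, 298 and 405. The share of calls that were higher went from 45.2% to 56.0% in CxH vs. CxWT with TMM factors and to 55.4% with DESeq2 size factors, in MH vs. MWT from 49.1% to 56.1% with TMM factors and 42.1% with column totals, and with column totals from 69.6% to 58.4% in CxH vs. MH, while CxWT vs. MWT went from 72.0% to 55.2%, and to 61.5% with the GC and length correction.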
